A study of Mus musculus with 22 samples.

Results

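Malat1 and Neat1 are long noncoding RNAs that stay in the nucleus, and their genes lie next to each other on mouse chromosome 19. Both were followed here by position: every poly(A) site on the minus strand between 5795000 and 5803000 was counted as Malat1, and every site between 5824000 and 5846500 as Neat1 (mm9). These windows held 193 and 436 of the 612268 site positions with a read in any of the 20 3′READS libraries, and both members had reads in every library. 3′READS sequences the fragment beside the poly(A) tail, so each read marks where an RNA ended. No mm9 annotation was used, so exons and introns are not given.

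The 3′READS libraries formed 10 groups of 2, all from mouse cell lines that the labels assign to strain C57BL/6. C2C12 myoblasts treated with siPcf11, an siRNA against Pcf11, or left untreated gave total RNA and, after 1 h with 50 µM 4-thiouridine (4sU), a label that cells build into the RNA they are making, 4sU RNA. Untreated C2C12 cells were also collected proliferating and differentiated. NIH3T3 fibroblasts were untreated or treated with siPcf11, and 4T1 mammary tumour cells were untreated or labelled Pcf11-IPAKO, a name the labels do not spell out. RNA-seq of 3T3-L1 preadipocytes gave 1 untreated library and 1 labelled siPcf11. No control siRNA is named, so an effect of transfection cannot be told apart from loss of Pcf11. The number of Pcf11-IPAKO clones is not given in the sources used here.

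Neat1 is made as a short form that ends at a poly(A) site and a long form that reads through this site and is cut at its far end by RNase P. The long form is the scaffold of paraspeckles, nuclear bodies that hold RNA-binding proteins, and both forms are known to rise in differentiating muscle cells. Malat1 gathers at nuclear speckles, which store splicing factors, and its main 3′ end is also cut by RNase P and closed by a triple helix in place of a poly(A) tail. PCF11 is a cleavage and termination factor that acts at poly(A) sites. 3′READS counts ends that carry a poly(A) tail, so ends cut by RNase P without one are not counted. A level below is that of tailed ends, and the whole amount of either RNA was not measured.

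The 3′READS libraries held 1887532 to 4432717 reads, and levels are given as CPM, the reads of a member per 1000000 reads of its library. Malat1 had 26 to 555 reads per library and Neat1 44 to 3117, so counting error was larger for Malat1. Replicates of every group differed by more than counting noise (chi-square per degree of freedom 2.03 to 16.2). The labels do not say that they were separate cultures, so a p-value rests on the spread between libraries that may be technical repeats. Neither the cell types nor Pcf11 were checked in 3′READS, whose tables name no genes. In bulk RNA, fewer cells with an RNA and less of it per cell cannot be told apart. An exact permutation test of 2 against 2 libraries cannot go below p = 0.333, so tests come from edgeR fits across all site groups, and adjusted p under 0.05 is the threshold. Where 1 library of a pair was left out, the other was assumed to vary like the remaining groups of the fit. A site group is a chain of kept sites with gaps of up to 5 kb. On the plus strand the Malat1 window held 0 or 1 read per library and the Neat1 window 0 to 8. Between the windows the minus strand held 0 to 2 reads in each C2C12 and NIH3T3 library, 2 and 9 in control 4T1, and 29 and 48 in Pcf11-IPAKO.

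In every C2C12 and NIH3T3 library Neat1 reads ended most often at the same site. Position 5842307, near the high end of the window, held 9580 Neat1 reads over the 20 libraries and is called the main short-form site here. Its mean share of Neat1 reads ran from 40.6% in siPcf11 4sU RNA to 89.7% in control 4sU RNA over the C2C12 and NIH3T3 groups. In 4T1 cells it was 34.3% in control and 11.5% in Pcf11-IPAKO, and in Pcf11-IPAKO library 1 site 5845407 held more reads. Other short-form sites lay upstream of it: 5842405 by 98 nt, 5842571 by 264 nt, 5843294 by 987 nt and 5843475 by 1168 nt. A pair at 5845354 and 5845407 lay 3047 and 3100 nt upstream and was read mostly in 4T1 cells. At the other end of the window, 5824708 lay 17599 nt downstream and marked the far end of the locus, on the side where the long form ends. It was the only Neat1 site near the low end to hold at least 5% of Neat1 reads in any group. The short-form region covers the 6 kb next to the high end, the long end covers the 3 kb next to the low end, and the middle lies between them.

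For Malat1 the leading site differed between groups. Site 5795690 held 409 reads summed over all libraries, 141 of them in control 4sU RNA, and lay near the low end, which is the 3′ side on this strand. Site 5795982 lay 292 nt upstream. Another cluster at 5798341 and 5798394 lay 2651 and 2704 nt upstream, with 144 and 382 reads. Site 5798394 held more reads than 5795690 in control total (28 against 12), siPcf11 total (30 against 5), siPcf11 4sU (51 against 16) and differentiated C2C12 groups (117 against 41). Sites 5801207, 5801273, 5801402 and 5801598, between 5517 and 5908 nt upstream, reached 5% of Malat1 reads in 4T1 groups alone. The end region of Malat1 covers the 1.5 kb next to the low end, and the rest of the window is called its body.

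Neat1 stood highest in differentiated C2C12 cells, at 712.5 CPM ± 13.2 (SD, n = 2 here and for the other groups), and lowest in siPcf11 C2C12 total RNA, at 26.9 ± 5.12. Between them came Pcf11-IPAKO 4T1 (422 ± 299), control 4T1 (292 ± 235), control NIH3T3 (241 ± 2.53), proliferating C2C12 (224 ± 23.4), control 4sU RNA (218 ± 11.5), control total RNA (113 ± 7.71), siPcf11 NIH3T3 (69.3 ± 3.78) and siPcf11 4sU RNA (48.9 ± 1.77). The libraries of neighbouring groups overlapped from Pcf11-IPAKO 4T1 down to control 4sU RNA, and each of the other neighbours was separated. All 3 siPcf11 groups took the lowest places. The 2 untreated sets of C2C12 total RNA, from different experiments, stood at 113 and 224 CPM and were not tested against each other.

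**Figure D1:**
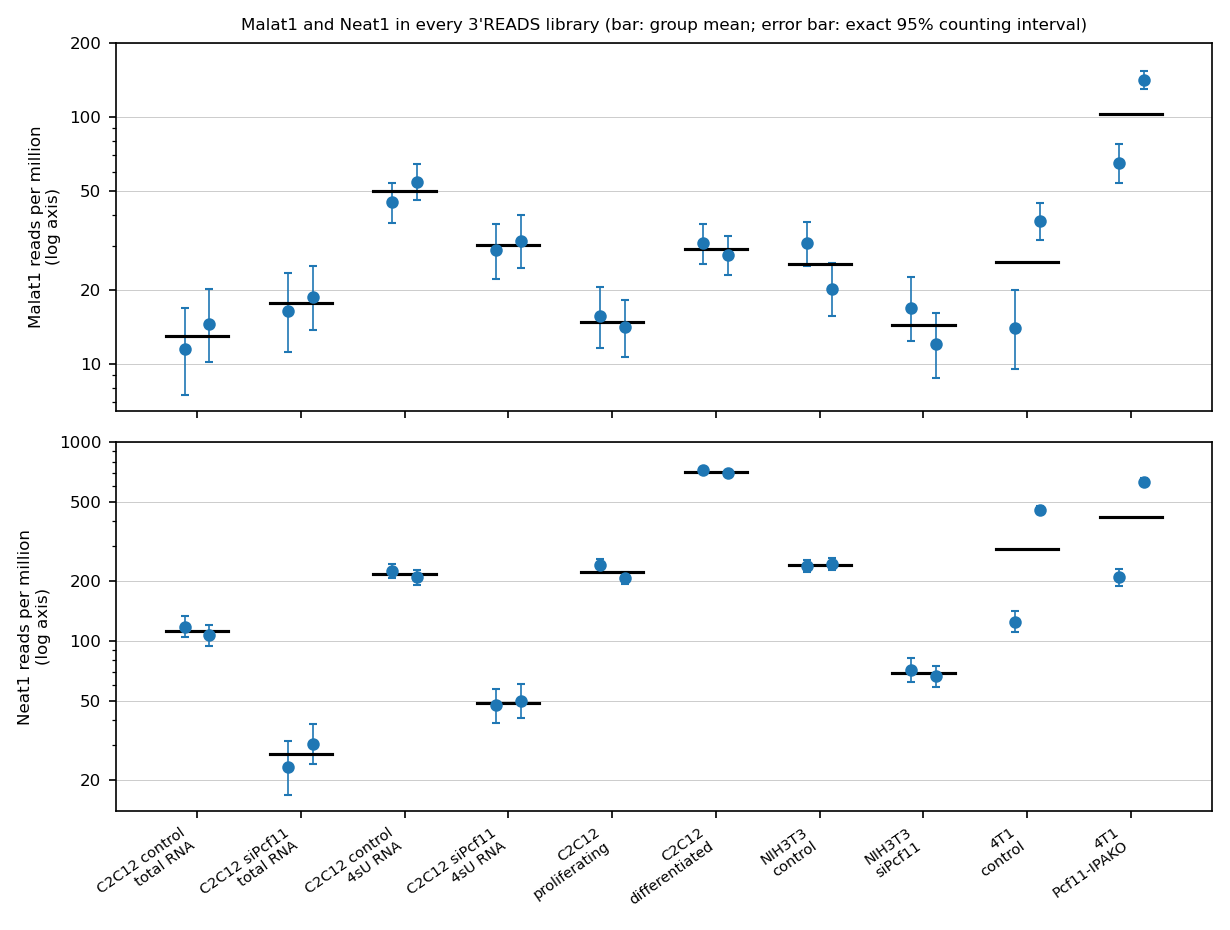
Level (CPM) of Malat1 (top) and Neat1 (bottom) on log axes in each of the 20 3′READS libraries. Points are libraries with exact 95% counting intervals and black bars are group means. Neat1 ran from 26.9 CPM in siPcf11 C2C12 total RNA to 712.5 in differentiated cells, and the 4T1 libraries of a group lay far apart.

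For Malat1 the order was different. Pcf11-IPAKO 4T1 was highest at 103 CPM ± 54.1, followed by control 4sU RNA at 49.9 ± 6.64, and both were separated from the group below. Then came siPcf11 4sU RNA (30.2 ± 1.88), differentiated C2C12 (29.1 ± 2.28), control 4T1 (25.9 ± 16.9) and control NIH3T3 (25.5 ± 7.60), whose libraries overlapped from one group to the next. The lowest levels were those of siPcf11 C2C12 total RNA (17.6 ± 1.64), proliferating C2C12 (14.9 ± 1.13), siPcf11 NIH3T3 (14.4 ± 3.40) and control C2C12 total RNA (13.0 ± 2.16). Among these 4, only siPcf11 total RNA was separated from the group below it.

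In C2C12 total RNA, Neat1 was lower after siPcf11. Control libraries held 118 and 107 CPM of Neat1 (268 and 266 reads), and siPcf11 libraries held 23.3 and 30.5 CPM (44 and 75 reads). The groups did not overlap, and both treated libraries lay far below the lower control. The log2 fold change of Neat1 after TMM scaling, which sets libraries to a common level over most site groups, was -1.88 (SE 0.18), or 3.67-fold lower (edgeR adjusted p = 2.9e-21). Of the 11101 site groups tested, 51.6% passed the same threshold, so a call by itself was common, and 7.86% of site groups had a lower log2 fold change than Neat1.

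The short-form region carried this fall. It held 257 and 246 reads in the control libraries and 32 and 41 in the siPcf11 libraries. Its log2 fold change was -2.49 (SE 0.20, edgeR adjusted p = 9.88e-29), where 51.6% of the 11104 rows tested with members as regions passed. The long end did not fall with it: it held 4 and 5 reads against 4 and 9, with a log2 fold change of 0.80 (95% interval -0.61 to 2.21, adjusted p = 0.361). The middle held 7 and 15 reads against 8 and 25, with a log2 fold change of 0.86 (interval -0.05 to 1.76, adjusted p = 0.109).

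Newly made RNA showed the fall in the Neat1 short-form region beside a rise at the far end of the locus. Control 4sU libraries held 226 and 209 CPM of Neat1 (579 and 556 reads) and siPcf11 4sU libraries 47.6 and 50.1 CPM (104 and 105 reads), without overlap. The log2 fold change of Neat1 was -1.85 (SE 0.16, edgeR adjusted p = 3.97e-26), where 53.5% of site groups passed. Over kept sites only it was -2.48 (adjusted p = 1.29e-36). Kept sites left out 42.3% and 36.2% of Neat1 reads in siPcf11 4sU libraries against 5.35% and 5.22% in control 4sU libraries. That alone enlarges the fall. The short-form region went from 553 and 532 reads to 50 and 61, a log2 fold change of -2.69 (SE 0.17, adjusted p = 5.25e-40).

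At the long end, control 4sU libraries held 3 and 4 reads and siPcf11 4sU libraries 23 and 18. These few reads rose although Neat1 reads as a whole fell, and the groups did not overlap. Their log2 fold change was 3.09 (SE 0.60, edgeR adjusted p = 2.69e-06), or 8.50-fold, and 53.5% of the rows tested with members as regions passed. The long end passed the filter on low counts only through the siPcf11 4sU libraries, where it was high. The p-value does not allow for this. Reads in the middle went from 23 and 20 to 31 and 26, a log2 fold change of 0.99 (SE 0.37, adjusted p = 0.0168). They lay at 18 and 16 positions in control and at 26 and 23 in siPcf11 4sU libraries, with no more than 3 reads at any of them. The call for the middle was lost without control 4sU library 2 (adjusted p = 0.107), siPcf11 4sU library 1 (0.16) or siPcf11 4sU library 2 (0.052), with library totals (0.108) and with DESeq2 (0.136).

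As a share of Neat1 reads, the long end rose from 0.62% ± 0.14 to 19.6% ± 3.52 in 4sU RNA, and its values in total RNA were 1.69% ± 0.27 and 10.5% ± 2.06. Site 5824708 held most of these reads: 2 and 4 in control 4sU, 21 and 16 in siPcf11 4sU, 4 and 4 in control total, and 4 and 8 in siPcf11 total libraries. Over all Neat1 reads, its mean share was 0.53% in control and 17.7% in siPcf11 4sU RNA. Use was tested only among kept sites that passed the filter on low counts. Relative to these, use of 5824708 rose by a log2 fold change of 5.63 in 4sU RNA (SE 0.60, edgeR adjusted p = 1.11e-14), where 14.2% of 9984 single sites passed. In total RNA its use rose by 3.30 (SE 0.74, adjusted p = 0.000282), where 16.3% passed. Site 5824708 passed the filter only through siPcf11 4sU RNA, where it was highest, and neither p-value allows for this. The total RNA call rested on siPcf11 library 2, since without it the log2 fold change was 3.06 with adjusted p = 0.0571. The main short-form site 5842307 held 237 and 227 reads in control total, 24 and 35 in siPcf11 total, 523 and 495 in control 4sU and 35 and 50 in siPcf11 4sU libraries. Its use relative to the tested sites of Neat1, a pool it dominates, had log2 fold changes of -0.23 (adjusted p = 0.647) and -0.51 (adjusted p = 0.0837).

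**Figure D2:**
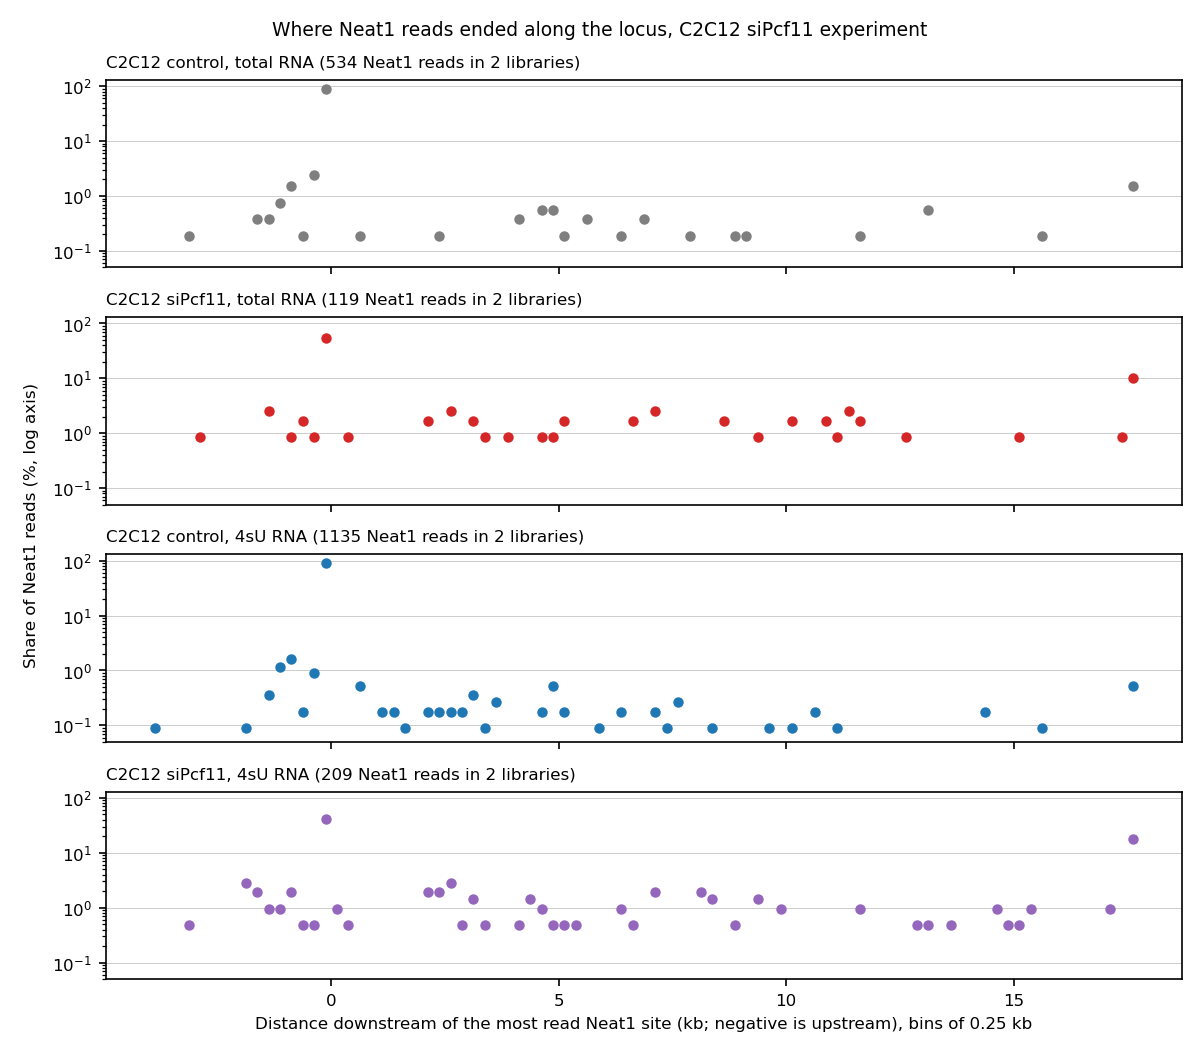
Share of Neat1 reads (log axis) by distance downstream of the main short-form site in bins of 0.25 kb, with both libraries of a group summed. A point is a bin with reads. The main site held most reads in control cells, and after siPcf11 the far end, 17599 nt downstream, and positions along the middle took larger shares.

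Malat1 did not follow Neat1 as a whole. In C2C12 total RNA it stood at 11.5 and 14.5 CPM in control libraries (26 and 36 reads) and at 16.4 and 18.7 in siPcf11 libraries (31 and 46 reads). The siPcf11 libraries were both higher, but the log2 fold change of 0.61 (SE 0.28) missed the threshold (edgeR adjusted p = 0.0619). In 4sU RNA, control libraries held 45.2 and 54.6 CPM (116 and 145 reads) and siPcf11 libraries 28.8 and 31.5 (63 and 66 reads). Here the siPcf11 libraries were both lower, with a log2 fold change of -0.42 (SE 0.21, adjusted p = 0.0791). It passed under 3 other settings. With library totals in place of TMM the log2 fold change was -0.73 (adjusted p = 0.00162), and that scaling also moved the median of all site groups by -0.31. Over kept sites only it was -0.64 (adjusted p = 0.0107), and in a fit of the 4 compared libraries alone -0.49 (adjusted p = 0.0289).

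The end and the body of Malat1 moved apart in 4sU RNA. Its end region went from 73 and 80 reads in control 4sU libraries to 11 and 14 in siPcf11 4sU libraries, without overlap. That is a log2 fold change of -2.01 (SE 0.34, edgeR adjusted p = 6.35e-08), or 4.03-fold lower. The body went from 43 and 65 reads to 52 and 52, with a log2 fold change of 0.54 (SE 0.26, adjusted p = 0.0663). In total RNA the end region held only 9 and 11 reads against 9 and 5, with a log2 fold change of -0.21 (95% interval -1.27 to 0.85, adjusted p = 0.776). The body held 17 and 25 against 22 and 41 reads there, a log2 fold change of 0.87 (SE 0.33, adjusted p = 0.0191). This call was lost without control total library 1 (adjusted p = 0.146) or siPcf11 total library 2 (0.2), with library totals (0.0652) and with DESeq2 (0.0751).

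Single sites were also tested within Malat1. Site 5795690 held 68 and 73 reads in control 4sU libraries and 8 and 8 in siPcf11 4sU libraries. Its use relative to the tested sites of Malat1 fell by 1.82 on the log2 scale (SE 0.41, edgeR adjusted p = 0.000286). This site passed the filter on low counts only through control 4sU RNA, where it was high, and the p-value does not allow for this. Site 5798394, in the upstream cluster, held 16 and 42 against 25 and 26 reads, so the groups overlapped in reads while its use rose by 1.12 (SE 0.36, adjusted p = 0.0192). The call at 5798394 was lost without control library 1 or either siPcf11 library, and its value was 1.77 without control library 2. In total RNA, 5795690 held 4 and 8 against 1 and 4 reads, too few to show a change in use (log2 fold change -1.33, SE 0.77, adjusted p = 0.282).

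**Figure D3:**
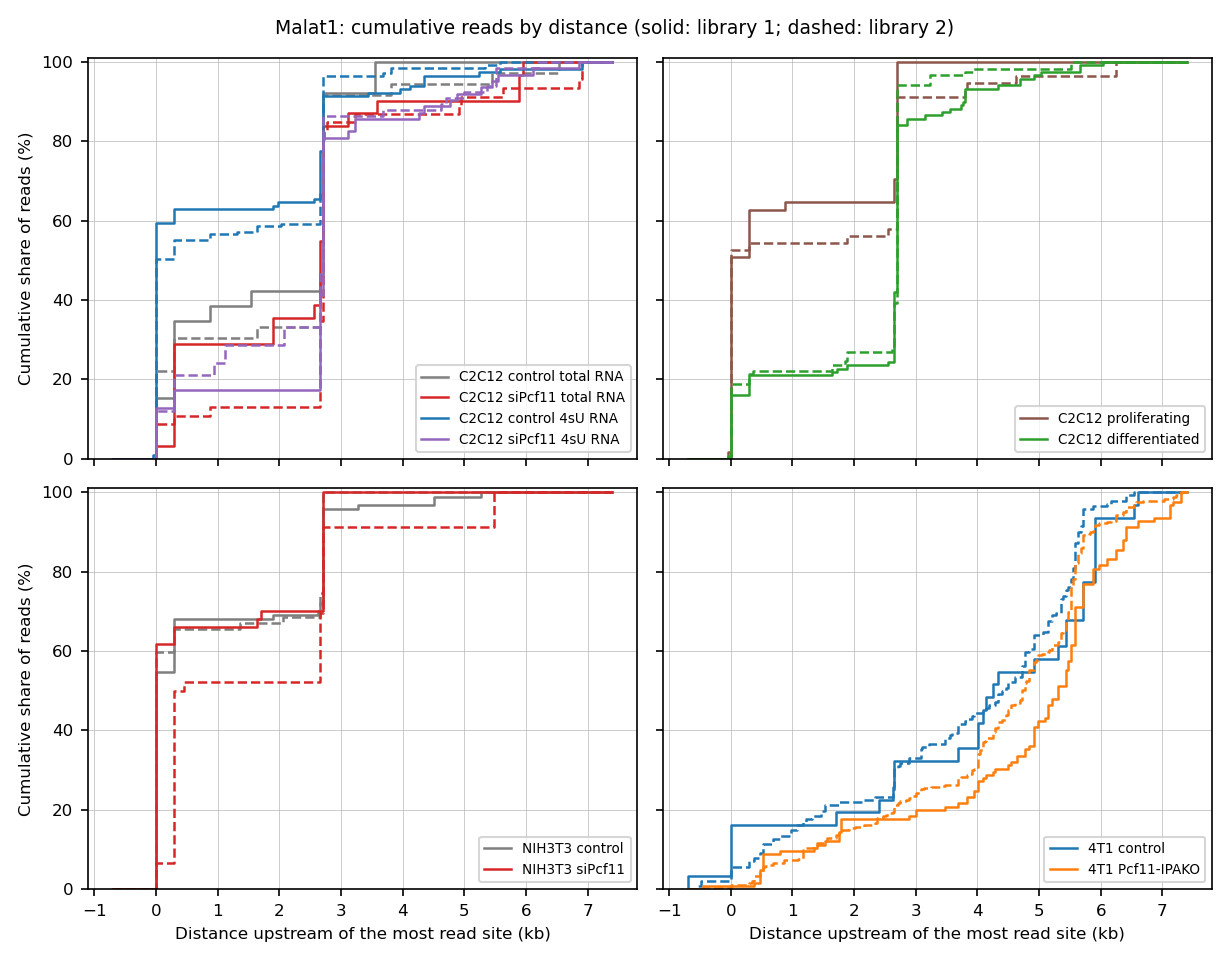
Cumulative share of Malat1 reads by distance upstream of its most read site, 1 line per library. A step at 0 is the end site and a step near 2.7 kb the upstream cluster. Control 4sU, proliferating C2C12 and NIH3T3 control libraries had their largest step at the end, and the 4T1 libraries rose in smaller steps along the locus.

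Tailed ends of both RNAs were more frequent in 4sU RNA than in total RNA of control cells. Malat1 stood at 45.2 and 54.6 CPM against 11.5 and 14.5, a log2 fold change of 1.85 (SE 0.24, edgeR adjusted p = 4.52e-12), or 3.61-fold. Neat1 stood at 226 and 209 CPM against 118 and 107, a log2 fold change of 0.87 (SE 0.14, adjusted p = 3.66e-08), or 1.83-fold. In both cases every 4sU library lay above every total RNA library. Over all 11101 site groups 27.8% passed and 11.2% passed as higher. Of all site groups, 97.9% had a lower log2 fold change than Malat1 and 90.6% a lower one than Neat1.

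The end region of Malat1 was higher in control 4sU RNA by a log2 fold change of 2.70 (SE 0.35, edgeR adjusted p = 1.48e-11), and the body by 1.14 (SE 0.30, adjusted p = 0.00152). The call for the body was lost without control 4sU library 2 (adjusted p = 0.124) or control total library 1 (0.0566). The end region held 59.1% ± 5.49 of Malat1 reads in control 4sU RNA and 32.6% ± 2.87 in control total RNA. The difference between regions was not tested as such, and no named site passed the test of use in this comparison, where 3.80% of single sites passed. For 5795690 the log2 fold change in use was 1.24 (SE 0.45, adjusted p = 0.109). Of the regions of Neat1, the short-form region was higher in 4sU RNA by 0.89 (SE 0.14, adjusted p = 3.13e-08). The long end, with 7 reads in control 4sU and 9 in control total RNA, had a log2 fold change of -0.56 (95% interval -2.15 to 1.04, adjusted p = 0.658).

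After siPcf11 the 4sU libraries were again above total RNA. Malat1 stood at 28.8 and 31.5 CPM in 4sU RNA against 16.4 and 18.7 in total RNA, a log2 fold change of 0.83 (SE 0.25, edgeR adjusted p = 0.00882), where 18.4% of site groups passed. Neat1 stood at 47.6 and 50.1 against 23.3 and 30.5 CPM, a log2 fold change of 0.90 (SE 0.20, adjusted p = 0.00017). The Malat1 call was lost with DESeq2 (adjusted p = 0.0726) and without siPcf11 4sU library 1 (0.0523), siPcf11 4sU library 2 (0.14) or siPcf11 total library 1 (0.117). At the long end of Neat1 the log2 fold change was 1.73 (SE 0.55, adjusted p = 0.0135), from 23 and 18 reads in 4sU against 4 and 9 in total libraries. The long end was tested only because these 4sU libraries, the higher group, passed the filter on low counts. This call too was lost without siPcf11 4sU library 1 (adjusted p = 0.18), siPcf11 4sU library 2 (0.0761) or siPcf11 total library 1 (0.165). The Neat1 short-form region was higher in 4sU RNA by 0.69 (SE 0.24, adjusted p = 0.0329) and the Malat1 body by 0.81 (SE 0.28, adjusted p = 0.0275), where 18.4% of rows passed. Neither call held with DESeq2 (0.0866 and 0.165), nor the first with library totals (0.0548). The first was lost without any 1 of the 4 siPcf11 libraries (0.0666 to 0.435), and the second without siPcf11 4sU library 1 (0.136), siPcf11 4sU library 2 (0.192) or siPcf11 total library 1 (0.323).

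Whether siPcf11 acted differently on 4sU and total RNA was tested as an interaction. For Malat1 the log2 difference (4sU response minus total response) was -1.03 (SE 0.35, edgeR unadjusted p = 0.00377, adjusted p = 0.147), and it missed the threshold. For Neat1 it was 0.03 (95% interval -0.44 to 0.50, adjusted p = 0.98). In this test 0.847% of site groups passed. Of the regions, the Malat1 end region had the difference -1.80 (SE 0.67, adjusted p = 0.204) and the Neat1 long end 2.29 (SE 1.00, adjusted p = 0.319), so neither was shown to differ between 4sU and total RNA.

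In NIH3T3 cells Neat1 was also lower after siPcf11 in both libraries. Controls held 240 and 243 CPM of Neat1 (753 and 810 reads) and siPcf11 libraries 72.0 and 66.6 (201 and 255 reads), without overlap and with little spread within a group. The log2 fold change was -1.78 (SE 0.21, edgeR unadjusted p = 7.85e-05), yet the adjusted p was 0.136. No site group out of 13575 passed in that fit (0.00%), while 2266 had an unadjusted p under 0.05 and DESeq2 called 332, among them Neat1 (adjusted p = 1.03e-06). Leaving out siPcf11 library 1 gave 5000 calls and an adjusted p of 6.02e-19 for Neat1, and leaving out siPcf11 library 2 gave 1780 calls and 3.74e-14. Those 2 fits take their spread from the control pair alone, so they say nothing of the spread after siPcf11 and do not replace the missed call. The siPcf11 NIH3T3 pair had the highest chi-square per degree of freedom of all groups, 16.2. Of all site groups, 2.21% had a lower log2 fold change than Neat1.

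The short-form region held 724 and 780 reads in control and 179 and 241 in siPcf11 NIH3T3 libraries, with a log2 fold change of -1.85 (SE 0.21, edgeR adjusted p = 0.136). At the long end these libraries held 9 and 12 against 3 and 10 reads, which the filter on low counts left out of the test. Malat1 stood at 30.9 and 20.1 CPM in control and 16.8 and 12.0 in siPcf11 libraries, with a log2 fold change of -0.81 (SE 0.38, adjusted p = 0.336). The difference of the Neat1 response between NIH3T3 and C2C12 total RNA was 0.02 on the log2 scale (95% interval -0.51 to 0.55, adjusted p = 1). For Malat1 it was -1.50 (SE 0.50, adjusted p = 0.122), where 3.51% of 14498 site groups passed. It passed when siPcf11 NIH3T3 library 1 (-1.79, adjusted p = 0.000905) or library 2 (-1.25, adjusted p = 0.045) was left out, in fits whose spread came from the other 3 groups alone. Cell line and experiment are the same split here and cannot be told apart.

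At single sites of Malat1 the siPcf11 NIH3T3 libraries differed from each other. Site 5795690 held 53 and 40 reads in control and 29 and 3 in siPcf11 NIH3T3 libraries, while 5795982, 292 nt upstream, held 13 and 4 against 2 and 20. No named site passed the test of use in NIH3T3, where 0.0887% of 9021 single sites passed.

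In 4T1 cells reads of tailed Malat1 ends were more frequent in the Pcf11-IPAKO libraries. Control libraries held 14.0 and 37.8 CPM of Malat1 (31 and 142 reads) and Pcf11-IPAKO libraries 64.9 and 141 (125 and 555 reads), so the groups did not overlap although each spread more than 2-fold. The log2 fold change was 2.03 (SE 0.46, edgeR adjusted p = 0.0366), or 4.09-fold, where 4.15% of 10420 site groups passed and 3.67% passed as higher. With library totals the value was 1.97 and the adjusted p 0.0699. With 1 library left out it ran from 1.48 without Pcf11-IPAKO library 2 to 2.88 without control library 2. Moving with it, the reads outside kept sites were 6.28% and 7.05% of all reads in the Pcf11-IPAKO libraries against 2.03% and 2.66% in control. On the minus strand between the windows, the mean was 13.6 CPM against 1.65. The part of these reads in the Malat1 result was not tested. With Malat1 summed over kept sites only, its log2 fold change was 1.91 (adjusted p = 0.0293). A site could be kept through the 2 Pcf11-IPAKO libraries alone, so this sum cannot set that part aside. Outside kept sites lay 35.5% and 47.2% of Malat1 reads in control and 41.6% and 51.7% in Pcf11-IPAKO libraries.

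Neat1 in 4T1 cells was dominated by the spread within groups. Control libraries held 125 and 458 CPM of Neat1 (278 and 1719 reads) and Pcf11-IPAKO libraries 210 and 634 (405 and 2486 reads), and the groups overlapped. A log2 fold change of 0.59 resulted (95% interval -0.49 to 1.67, edgeR adjusted p = 0.704). It was -0.06 without control library 1, -0.28 without Pcf11-IPAKO library 2 and 1.73 without control library 2 (adjusted p = 0.00515). A block for the replicate number gave 0.67 (adjusted p = 0.00559), but the labels do not say that a number marks a shared origin. In the middle of Neat1, control libraries held 12 and 17 reads and Pcf11-IPAKO libraries 16 and 137, so the groups overlapped, and the log2 fold change of 2.20 (SE 0.61) had an adjusted p of 0.0784. Without Pcf11-IPAKO library 2 it was 0.92 (adjusted p = 0.697), and with the block 2.14 (adjusted p = 1.81e-05). The number of Neat1 positions with reads went from 45 and 99 in control to 66 and 187 in Pcf11-IPAKO libraries. Over the whole libraries, positions with reads went from 53146 and 97285 to 105666 and 203899, so such a rise was not particular to Neat1.

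The places where Malat1 and Neat1 reads ended in 4T1 cells differed from those in the other lines. Malat1 reads lay at 19 and 67 positions in control and 48 and 116 in Pcf11-IPAKO libraries, against 5 to 21 positions in the C2C12 and NIH3T3 libraries. Positions with reads also rose from control to Pcf11-IPAKO over the whole libraries, so a rise was not particular to Malat1. The end region held 14.8% ± 1.94 of Malat1 reads in control 4T1 and 8.13% ± 2.07 in Pcf11-IPAKO. The body of Malat1 rose from 26 and 123 reads to 113 and 518, a log2 fold change of 2.13 (SE 0.47, edgeR adjusted p = 0.0332), where 4.14% of rows passed. That call was lost with library totals (2.07, adjusted p = 0.0646), and with 1 library left out the value ran from 1.55 without Pcf11-IPAKO library 2 to 3.01 without control library 2. For the end region the log2 fold change was 1.12 (SE 0.58, adjusted p = 0.414). Its end site 5795690 held 4 and 5 reads in control and 0 and 5 in Pcf11-IPAKO libraries, and 0 reads, with 3 reads taken as the limit, allow up to 1.56 CPM in that library.

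For Neat1 in 4T1 cells, 5842307 held 62 and 795 reads in control and 22 and 436 in Pcf11-IPAKO libraries. The far upstream site 5845407 held 13 and 22 in control and 80 and 138 in Pcf11-IPAKO. The share of short-form region reads that ended away from the main site was 64.5% ± 16.2 in control and 87.8% ± 9.22 in Pcf11-IPAKO. This share counts the pair at 5845354 and 5845407, which lies in the region by position alone. None of the named sites passed the test of use (0.569% of 8430 single sites did). The log2 fold change in use was 2.48 for 5845407 (SE 1.14, edgeR adjusted p = 0.991) and -1.19 for 5842307 (SE 0.87, adjusted p = 1). With the block both passed, at 2.31 (adjusted p = 2.66e-05) and -1.42 (adjusted p = 0.000647).

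Tailed ends of both RNAs were more frequent in differentiated than in proliferating C2C12 cells. Neat1 stood at 241 and 207 CPM in proliferating libraries (784 and 841 reads) and at 722 and 703 in differentiated libraries (2794 and 3117 reads). The groups were far apart, with a log2 fold change of 1.81 (SE 0.10, edgeR adjusted p = 3.67e-22), or 3.51-fold, where 62.4% of 11759 site groups passed and 32.7% passed as higher. Malat1 stood at 15.6 and 14.1 CPM against 30.7 and 27.5, a log2 fold change of 1.11 (SE 0.20, adjusted p = 3.68e-06), or 2.17-fold, again without overlap. Of all site groups, 89.5% had a lower log2 fold change than Neat1 and 82.5% a lower one than Malat1.

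The rise of Neat1 reads lay in the short-form region. The short-form region went from 716 and 762 reads to 2742 and 3068, a log2 fold change of 1.92 (SE 0.10, edgeR adjusted p = 1.75e-25), where 62.4% of rows passed. Reads in the middle went from 61 and 62 to 44 and 35, a log2 fold change of -0.68 (SE 0.26, adjusted p = 0.0171). This fall was lost without proliferating library 1 (adjusted p = 0.109) or differentiated library 2 (0.251), and with DESeq2 (0.141). The long end held 7 and 17 against 8 and 14 reads, with a log2 fold change of -0.16 (95% interval -1.06 to 0.74, adjusted p = 0.777). Since the long form is cut by RNase P and only tailed ends are counted, its level was not measured.

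Within the short-form region, reads spread to upstream sites on differentiation. Site 5842571 went from 13 and 13 reads to 303 and 351. Its use relative to the tested sites of Neat1 rose by 2.68 on the log2 scale (SE 0.25, edgeR adjusted p = 1.31e-15), where 9.84% of 12137 single sites passed. Site 5843475 went from 6 and 11 to 187 and 174 reads (use 2.44, SE 0.30, adjusted p = 2.27e-10). It needed the differentiated libraries to pass the filter on low counts, and the p-value does not allow for this. Site 5843294 went from 15 and 11 to 149 and 178 reads (use 1.67, SE 0.27, adjusted p = 1.57e-06). All 3 were higher in both differentiated libraries. The main site itself rose from 662 and 696 to 1927 and 2155 reads, while its use fell by 0.38 (SE 0.12, adjusted p = 0.0237). That fall lost its call without proliferating library 1 (adjusted p = 0.0554) or either differentiated library (0.286 and 0.274). The share of short-form region reads away from the main site was 8.10% ± 0.79 in proliferating and 29.7% ± 0.03 in differentiated cells. In NIH3T3 cells it was 40.1% ± 0.43 in control and 29.1% ± 0.69 after siPcf11, a difference with no test of its own.

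**Figure D4:**
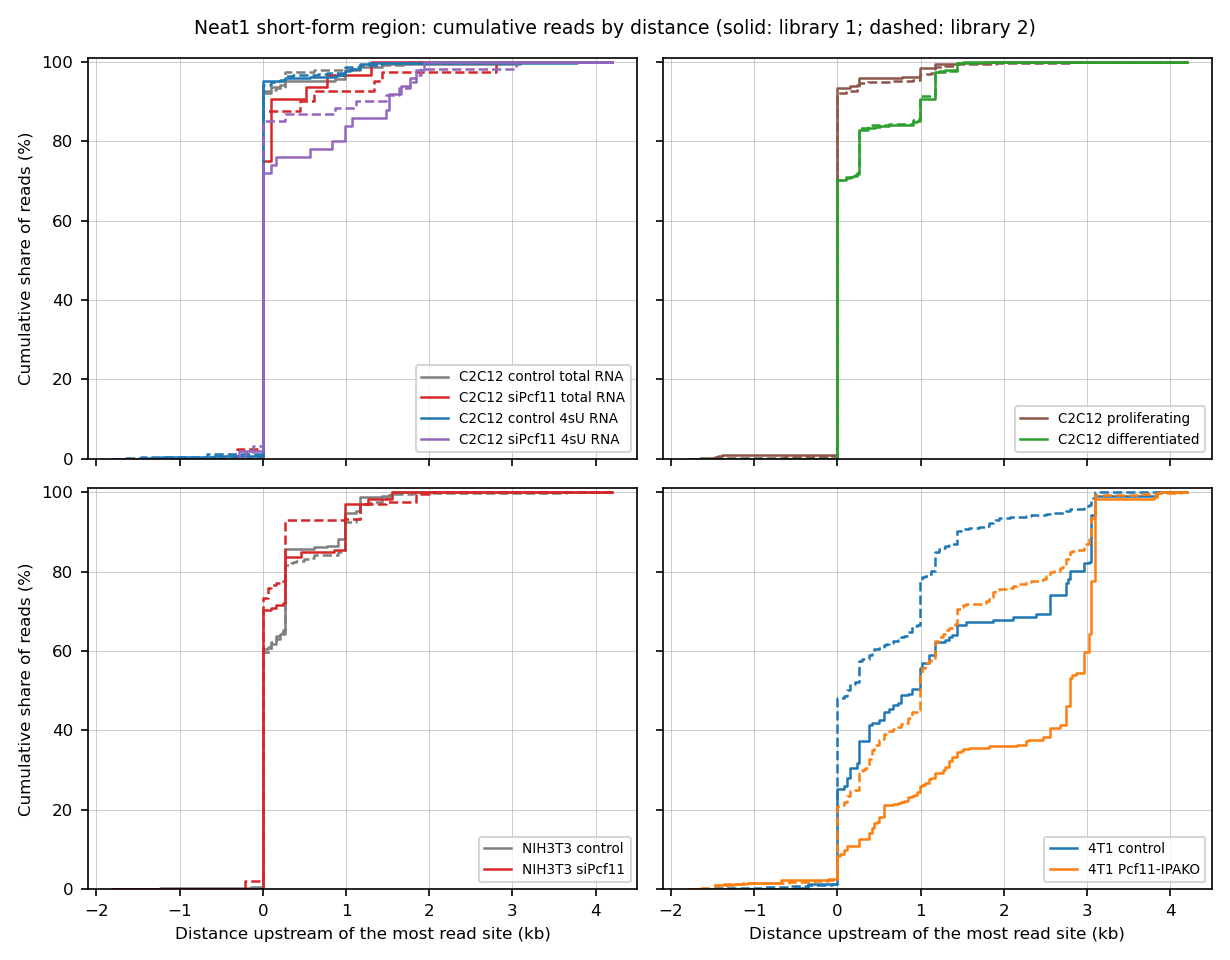
Cumulative share of reads in the Neat1 short-form region by distance upstream of the main site, 1 line per library. The step at 0 is the main site. It was lower in differentiated than in proliferating C2C12 cells, and smallest in 4T1, where a further step lay near 3.1 kb.

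Malat1 changed its ends on differentiation as well. The body went from 19 and 26 reads to 94 and 95, a log2 fold change of 2.02 (SE 0.26, edgeR adjusted p = 4.31e-10). The end region held 32 and 31 against 25 and 27 reads, with a log2 fold change of -0.32 (95% interval -0.95 to 0.30, adjusted p = 0.383). Its share of Malat1 reads was 58.6% ± 5.91 in proliferating and 21.6% ± 0.79 in differentiated cells. Site 5795690 held 26 and 29 against 19 and 22 reads, and its use fell by 1.48 on the log2 scale (SE 0.35, adjusted p = 0.0017). Site 5798341 rose from 3 and 0 to 21 and 14 reads (use 2.38, SE 0.70, adjusted p = 0.0147), a call lost without proliferating library 2 (1.38, adjusted p = 0.454) or differentiated library 1 (1.95, adjusted p = 0.294). Without proliferating library 1 its value was 6.08, a fitted value against a group left with 0 reads and so no bound. Site 5798341 passed the filter on low counts only through the differentiated libraries, and its p-value does not allow for this. At 5798394 the reads went from 15 and 19 to 50 and 67, and the log2 fold change in use was 0.71 (SE 0.31, adjusted p = 0.157).

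**Figure D5:**
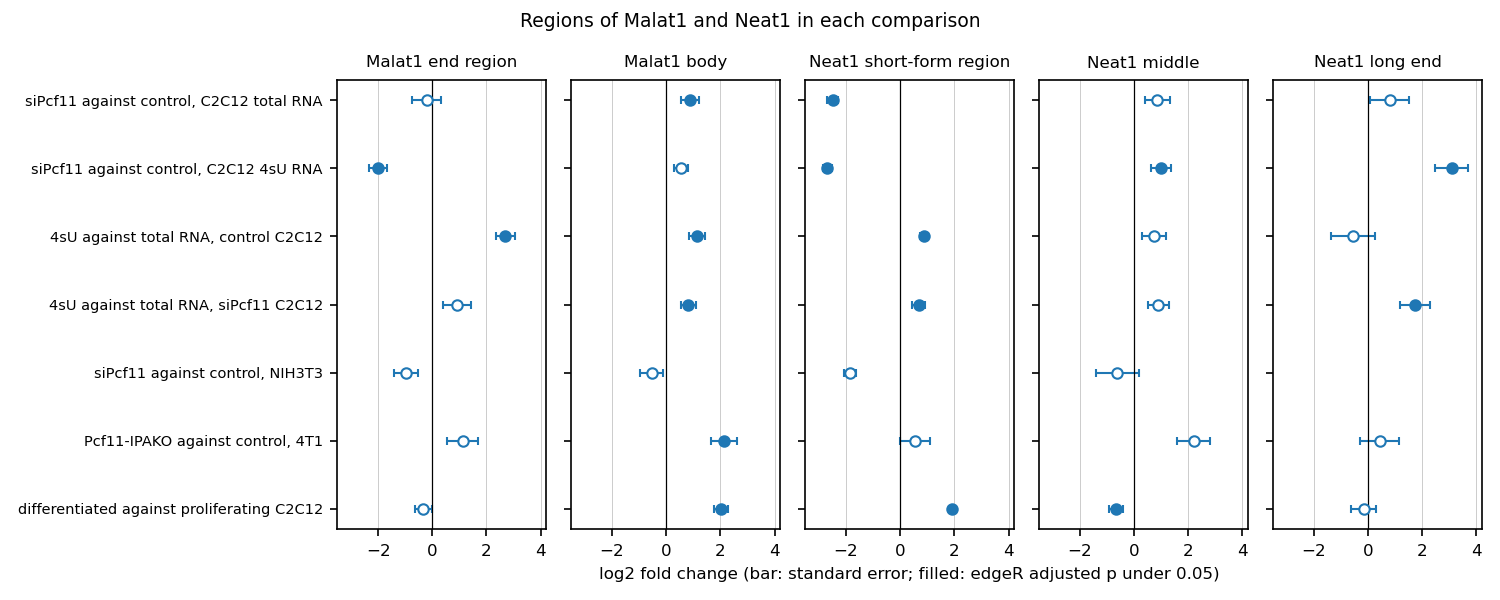
Log2 fold change (point) and standard error (bar) of each region of Malat1 and Neat1 in 7 comparisons; filled points passed edgeR adjusted p under 0.05. The Neat1 short-form region was lowest after siPcf11 in C2C12 cells and highest on differentiation, and the Neat1 long end stood out in siPcf11 4sU RNA. A missing point was removed by the filter on low counts. In the C2C12 siPcf11 experiment the Neat1 long end passed this filter only through siPcf11 4sU RNA.

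Over the 20 libraries, the levels of other site groups were compared with each member by Pearson's r of log2(CPM + 1), among 8600 site groups with a mean of at least 10 CPM. The site group most like Neat1 lay on chromosome 15, plus strand, from 80081014 to 80088028 (r = 0.931). The next lay on chromosome 1, plus strand, from 153210645 to 153211577 (r = 0.904), and on chromosome 5, plus strand, from 31257464 to 31257510 (r = 0.9). For Malat1 the likest site group lay on chromosome 5, plus strand, from 31925003 to 31925015 (r = 0.784). Behind it came chromosome 11, minus strand, 6425594 to 6428029, and chromosome 6, plus strand, 83058975 to 83061587, each with r = 0.727. These values describe libraries that share cell lines, experiments and depth, and the genes at these positions are not named here.

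Neither member was listed in the 3T3-L1 RNA-seq files, and none of 18 long noncoding RNAs looked for was listed. Of 11123 symbols that matched RefSeq, 1 was annotated as a long noncoding RNA and 11109 as protein coding, and no listed gene had fewer than 5 counts. Levels of Malat1 and Neat1 in these cells were therefore not analysed here. The files do list all 8 preadipocyte markers checked. Of the 7 adipocyte markers, Adipoq, Plin1, Lep, Cidec and Cebpa were not listed, while Fabp4 had 845 and 552 counts and Pparg 201 and 187 in the untreated and siPcf11 libraries. Pcf11 itself had 939 counts in the untreated library and 840 in the library labelled siPcf11, a log2 ratio per library total of 0.13 (95% counting interval -0.00 to 0.27), so it was not lower there.

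The mRNAs of proteins that work with these RNAs moved little between the 2 RNA-seq libraries, which allow no test. Genes are grouped below by their protein, and no protein was measured. Of 20 paraspeckle proteins, 0 differed by at least 1.5-fold, 5 had a log2 ratio above 0, and the median was -0.10. Over all 9143 genes with at least 100 counts the median was -0.03, 5.77% differed by at least 1.5-fold and 45.3% had a ratio above 0. The ends of the list were Nudt21, a subunit of cleavage factor I (113 and 114 counts, 0.31), and Hnrnph1, an RNA-binding protein of paraspeckles (8205 and 5329 counts, -0.33). For 16 nuclear speckle proteins the median was -0.05, from 0.27 for the splicing factor Srsf3 to -0.34 for the kinase Clk1, again with 0 past 1.5-fold. Among 7 measured factors of RNase P, RNase Z and Malat1 ends, Pop7, a subunit of RNase P, was the only one past 1.5-fold, with 119 and 55 counts (-0.81, counting interval -1.31 to -0.35). Of 19 cleavage and polyadenylation factors 0 passed, with a median of -0.05 and the lowest value at Cpsf4 (166 and 96 counts, -0.49).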

How the data were processed

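Each deposited 3′READS file holds a read count per poly(A) site, with chromosome, strand and position, and each deposited RNA-seq file a count per gene symbol. All are whole numbers that the authors did not normalize. The submitters' processing notes name cutadapt, Bowtie2 and STAR without versions, and build mm9. How reads were assigned to sites is not given in the sources used here.

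Members were summed over all minus-strand reads in their windows. Elsewhere, a site was kept at 1 CPM or more in 2 or more libraries of its cell line (39540 C2C12 sites) and kept sites were chained over gaps of up to 5 kb into site groups. Tests of counts used edgeR 4.0.16 with limma 3.58.1 in R 4.3.3 (quasi-likelihood F-tests, TMM, filterByExpr minimum count 10, Benjamini-Hochberg adjustment over all rows). One fit held the 8 C2C12 siRNA libraries, and each other set had its own. Site use was tested with diffSpliceDGE on kept sites that passed the same filter, each against the tested sites of its site group. A row or site could pass the filter through 1 group alone. A standard error is the log2 fold change over the square root of F. The scripts were tested on simulated data.

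Named sites held at least 5% of a member's reads in at least 1 group. Of each RNA-seq list, the 2 highest and 2 lowest ratios could be named, among genes with at least 100 counts. Members, regions and lists were chosen with earlier results of these data known. Alternatives were DESeq2 1.42.0, other scalings, other filters, region limits of 5, 2 and 1 kb, a replicate block and each library left out. The sum over kept sites, and for regions the tests of differences, the block and the left-out libraries, were chosen after seeing the data. Python 3.11.15 with matplotlib 3.10.9, pandas 2.3.3 and numpy 2.4.6 made tables and plots. Intervals and limits of counts cover counting error only.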

Additional observations from a re-analysis of the deposited data

Results flagged for a closer look

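Reads also lay outside the sites counted as Malat1 or Neat1. On the minus strand between the Malat1 and Neat1 windows, the Pcf11-IPAKO 4T1 libraries held 29 and 48 reads, a mean of 13.6 CPM, above the 2 and 9 reads of control 4T1 (1.65 CPM). These reads enter no comparison of the members. Over the whole libraries, reads outside kept sites were also more frequent, at 6.28% and 7.05% of all reads in Pcf11-IPAKO against 2.03% and 2.66% in control 4T1. A rise particular to this stretch was not tested.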

How the results depend on the processing

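Over all settings, 187 of the values for the levels of Malat1 and Neat1 kept their direction and side of the threshold, 5 lost a call, 13 gained one and 16 changed sign, all of the last in results that did not pass. For regions these numbers were 237, 28, 14 and 6, and for single sites 91 kept both, 9 lost a call and 2 gained one. The cause of these changes was not tested. Calls lost with DESeq2 were those of Malat1 in 4sU against total RNA after siPcf11 (0.80) with its body (0.79) and the Neat1 short-form region (0.66), the Neat1 middle on differentiation (-0.68) and in siPcf11 4sU RNA (0.97), and the Malat1 body in siPcf11 total RNA (0.90). DESeq2 gave no adjusted p for the Neat1 long end in 4sU against total RNA after siPcf11. It gained Neat1 in NIH3T3 (-1.78) and its short-form region (-1.85). Library totals lost Malat1 in 4T1 (1.97) and its body (2.07), the Malat1 body in siPcf11 total RNA (0.70), the Neat1 middle in siPcf11 4sU RNA (0.69) and its short-form region in 4sU against total RNA after siPcf11 (0.62), and gained Malat1 in siPcf11 4sU RNA (-0.73). That last call was also gained with kept sites only (-0.64) and in the fit of the 4 compared libraries (-0.49), and Malat1 in siPcf11 total RNA with DESeq2 size factors (0.64). The Neat1 difference between 4sU and total RNA changed sign with DESeq2 size factors (-0.04), library totals (-0.11), DESeq2 (-0.036) and kept sites only (-0.079), and that between NIH3T3 and C2C12 without the low-count filter (-0.023).

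The replicate number as a block gained Neat1 (0.67), its middle (2.14) and its short-form region (0.64) in 4T1, where the block called 1582 site groups against 432, and the 2 pairs' deviations correlated at 0.369. In 4T1 it also moved the single sites called from 48 to 129, in the 4sU difference the site groups from 94 to 217, and in NIH3T3 the single sites from 8 to 0. In the other groups same-numbered libraries correlated at -0.019 to 0.082, and the labels give no shared origin. The block also gained the use of Neat1 sites 5842307 (-1.42) and 5845407 (2.31) in 4T1, and changed no other call among the results counted above.

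With 1 library left out in turn, the log2 fold changes of members and regions ran as follows where a call or sign changed, and the library left alone was assumed to vary like the remaining groups. In siPcf11 total RNA they ran from 0.45 to 0.79 for Malat1, 0.67 to 1.17 for its body, -0.78 to 0.45 for its end region and 0.15 to 1.43 for the Neat1 middle. In siPcf11 4sU RNA they ran from 0.30 to 0.84 for the Malat1 body and 0.81 to 1.13 for the Neat1 middle. In 4sU against total RNA they ran from 0.84 to 1.38 for the Malat1 body of controls. After siPcf11 they ran from 0.67 to 0.85 for Malat1, 0.51 to 1.04 for its body, 1.35 to 2.13 for the Neat1 long end, 0.36 to 1.62 for its middle and 0.43 to 0.75 for its short-form region. In NIH3T3 they ran from -1.13 to -0.43 for Malat1, -1.47 to -0.56 for its end region, -1.88 to -1.71 for Neat1, -2.48 to 0.24 for its middle and -1.91 to -1.82 for its short-form region. In 4T1 they ran from -0.28 to 1.73 for Neat1, 0.92 to 2.79 for its middle and -0.31 to 1.75 for its short-form region. On differentiation they ran from -0.95 to -0.42 for the Neat1 middle and -0.52 to 0.41 for its long end. For the Neat1 difference they ran from -0.29 to 0.11 between 4sU and total RNA and from -0.18 to 0.22 between NIH3T3 and C2C12, and for Malat1 from -1.82 to -1.14 between NIH3T3 and C2C12.

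Counts over all sites moved by more than 1.5 times with DESeq2 in 4sU against total RNA of controls (1634 site groups) and after siPcf11 (1163), in their difference (32) and in NIH3T3 (332), and without the low-count filter between NIH3T3 and C2C12 (273). In NIH3T3, 26 single sites passed where sites were kept at 5 CPM. With 1 library left out, site groups called ran from 0 to 5000 in NIH3T3, 0 to 3651 in its difference from C2C12, 25 to 92 in the 4sU difference, and 1573 to 2607 and 1186 to 1765 in 4sU against total RNA of controls and after siPcf11. Single sites called ran from 77 to 232 and 111 to 196 in those last 2 comparisons, 15 to 30 in 4T1, 635 to 834 on differentiation, 787 to 885 in siPcf11 4sU RNA and 0 to 2025 in NIH3T3. Neither member is listed in the RNA-seq files, so no scaling of them could be tried.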
